A study of Mus musculus with 6 samples.

Results

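The genes examined here encode the miRNA machinery itself: the Argonautes *Ago1*, *Ago2*, *Ago3* and *Ago4*, the GW182 proteins *Tnrc6a*, *Tnrc6b* and *Tnrc6c*, and the processing factors *Dicer1*, *Drosha* and *Dgcr8*. They are 10 of the 49993 genes of the mouse RefSeq table with a position, and were chosen by name and function, with earlier results of these data known. AGO2 chimeric eCLIP was performed on whole brain at P0 (postnatal day 0). This assay crosslinks AGO2 to RNA, immunoprecipitates it (IP), sequences the bound fragments beside a size-matched input, and reads the miRNA from fragments ligated to it. Every AGO2 cluster and every miRNA target cluster on the strand of these genes was used, in 1 WT library and 2 *Mov10* Deletion libraries.

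All brains were of the C57Bl/6J strain. *Mov10* Deletion mice came from a cross of floxed *Mov10*, *Emx1*-Cre mice with mice heterozygous for a *Mov10* mutation, and WT brains carried normal *Mov10*. *Emx1*-Cre acts in excitatory neurons and glia of the dorsal forebrain, so a whole *Mov10* Deletion brain also holds cells in which the floxed allele was not removed. With 1 WT library no test between genotypes was possible, and values are given by library. In whole tissue, fewer cells of a type and less RNA per cell cannot be told apart.

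Argonautes hold the mature miRNA and pair it with a target RNA through the seed, nucleotides 2 to 8. GW182 proteins bind Argonaute through their glycine-tryptophan repeats and recruit the deadenylases that shorten the poly(A) tail of the target. Upstream of both, DROSHA and its RNA-binding partner DGCR8 cut the primary transcript in the nucleus, and DICER1 cuts the exported hairpin to the mature duplex. In developing brain miR-124-3p is the characteristic miRNA of neurons, miR-9-5p that of neural progenitors, and let-7 rises as cells differentiate.

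The miRNAs whose target sites are described below are printed first, grouped by seed, because those sites are read against them. The seed is in capitals, and sequences are those of RefSeq on GRCm38.p6, which held 60 of the 66 miRNAs assigned in the 10 genes. miR-124-3p, the miRNA assigned most often, is named only.
let-7a-5p: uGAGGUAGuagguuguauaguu
let-7c-5p: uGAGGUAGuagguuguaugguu
let-7g-5p: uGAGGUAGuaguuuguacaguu
miR-26a-5p: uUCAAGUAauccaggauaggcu
miR-26b-5p: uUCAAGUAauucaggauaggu
miR-30c-5p: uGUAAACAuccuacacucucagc
miR-30e-5p: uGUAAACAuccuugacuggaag
miR-103-3p: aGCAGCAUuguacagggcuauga
miR-107-3p: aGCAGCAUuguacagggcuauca
miR-130a-3p: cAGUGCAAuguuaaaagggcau
miR-301a-3p: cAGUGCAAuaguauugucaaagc
miR-125b-5p: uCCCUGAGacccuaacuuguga
miR-9-5p: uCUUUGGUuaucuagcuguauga
miR-153-3p: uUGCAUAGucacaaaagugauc

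Target sites of these miRNAs in *Dicer1* and the GW182 genes follow, a selection that shows sites shared between genes, between miRNAs of a seed or between libraries, each with 11 nucleotides on either side of the match to the seed, which is in capitals. They were read 5′ to 3′ from the GENCODE vM39 transcript of each gene at the distance of the cluster from the 3′ end of the gene, and positions count from 1 at the start of the coding sequence or of the 3′UTR.
*Dicer1* coding sequence 3641 to 3647, let-7: tgtacaaccaaCTACCTCatatcccattc
*Dicer1* coding sequence 3749 to 3755, let-7: cgctaacacatCTACCTCagatggaagcc
*Dicer1* coding sequence 3395 to 3401, miR-103-3p: agtccctgaacATGCTGCacatcaaggtg
*Dicer1* 3′UTR 1237 to 1243, miR-130a-3p and miR-301a-3p: agtttaattttTTGCACTgtgactataat
*Tnrc6a* 3′UTR 153 to 159, miR-26: atcagtttgaaTACTTGAatcatgcaggc
*Tnrc6b* 3′UTR 241 to 247, miR-26: cactcttgaaaTACTTGAatcatgaacgc
*Tnrc6c* 3′UTR 585 to 591, miR-26: aaacatgcaaaTACTTGAacccagcaggc
*Tnrc6a* 3′UTR 1524 to 1530, miR-30: tggcttttaacTGTTTACaataggatgtg
*Tnrc6c* 3′UTR 1039 to 1045, miR-30: tcatgtgtaaaTGTTTACtcaaggactct
*Tnrc6b* 3′UTR 416 to 422, miR-130a-3p and miR-301a-3p: tttaactttgtTTGCACTgggtgtgtttc
*Tnrc6b* coding sequence 1631 to 1637, miR-125b-5p: atctggggtctCTCAGGGagaatggaaac

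The 3 libraries held 359172, 616014 and 616005 AGO2 clusters, of which 514, 891 and 891 lay in the 10 genes, in the order WT, *Mov10* Deletion replicate 1 and replicate 2. Enriched here means a log2 ratio of IP to input of 3 or more together with a −log10 p of 3 or more. The reads behind each value were inferred from these deposited values, and with 1 input read a cluster passed from 16 IP reads in WT, from 9 in *Mov10* Deletion replicate 1 and from 8 in its replicate 2. Counts of enriched clusters in different libraries therefore rest on different depths. The *Mov10* Deletion lists gave the same boundaries to 882 clusters of the 10 genes, so the presence of a cluster in both is not independent. No cluster of these genes was shared with another gene on the same strand, and none lay on the opposite strand. *Mov10* had 11 clusters in WT and 9 in each *Mov10* Deletion library, of which 1 was enriched in WT (log2 4.0) and none in *Mov10* Deletion. This does not check the deletion, since their place relative to the removed exons was not analysed here. All 5 neuronal markers (*Tubb3*, *Map2*, *Dcx*, *Stmn2* and *Snap25*) and all 5 markers of progenitors and glia had clusters in every library. Of 5 genes of other tissues *Myh6*, *Ins2* and *Krt5* had no cluster, *Alb* had 1, 3 and 3 with none enriched, and the globin gene *Hbb-bs* had an enriched cluster in every library.

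Enriched AGO2 clusters were spread unevenly over the 10 genes. *Tnrc6a*, *Tnrc6b* and *Tnrc6c* held 43 of the 54 enriched WT clusters of the 10 genes, 69 of the 115 of *Mov10* Deletion replicate 1 and 68 of the 84 of its replicate 2. They also held most clusters of any kind, 298 of 514 in WT and 470 of 891 in each *Mov10* Deletion library. *Dicer1*, *Ago1* and *Ago2* held all others in WT. In replicate 1 *Ago3* had 4, *Ago4* 2 and *Drosha* 4, in replicate 2 *Drosha* had 2, and *Dgcr8* had none in any library. An enriched cluster was present in 6 of the 10 genes in WT, in 9 of 10 in replicate 1 of *Mov10* Deletion and in 7 of 10 in replicate 2. Among all genes with a cluster the same was true of 18.7%, 40.9% and 32.1%, in the same order. The 10 genes are large, and among genes with at least 16 clusters, the fewest that a member had in any library, the shares were 37.6%, 71.3% and 58.7%. Both *Mov10* Deletion libraries had an enriched cluster in 7 of the 10 genes. Of all genes with a cluster this was true of 24.1%, and of those with at least 16 clusters of 48.5%. All 7 genes of replicate 2 were thus also enriched in replicate 1, as were 4010 of the 5339 of replicate 2 over all genes.

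By cluster, 10.5% of the clusters of the 10 genes were enriched in WT (exact Clopper-Pearson 95% limits 7.99 and 13.5%). In replicates 1 and 2 of *Mov10* Deletion the share was 12.9% (10.8 to 15.3%) and 9.43% (7.59 to 11.5%). Over all clusters on the sense strand of a gene the shares were 2.09%, 5.17% and 3.09%, below each interval. The 3 GW182 genes reached 14.4%, 14.7% and 14.5%. The Argonaute genes reached 4.76% in WT (1.77 to 10.1%), 13.9% in replicate 1 (9.67 to 19.0%) and 4.33% in replicate 2 (2.10 to 7.82%), so that the library-wide share lay inside the interval in WT and replicate 2. The processing genes gave 5.56% (1.83 to 12.5%), 7.37% (4.09 to 12.1%) and 3.16% (1.17 to 6.75%), each with the library-wide share inside it. These values pool unlike genes. In *Dicer1* 31.3%, 20% and 8% of clusters were enriched and in *Ago1* 16.7%, 29.5% and 13.6%, while *Drosha* had 0, 4.12% and 2.06% and *Dgcr8* none. *Tnrc6a* (11.9%, 12.2% and 11.1%) and *Tnrc6b* (14.7%, 15.3% and 14%) lay below *Ago1* and *Dicer1* in WT and in replicate 1, and *Tnrc6c* (17.2%, 17.3% and 19.5%) was the highest of the 10 genes in replicate 2. Such intervals cover counting error only, and adjoining clusters of a gene are not independent.

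**Figure D1:**
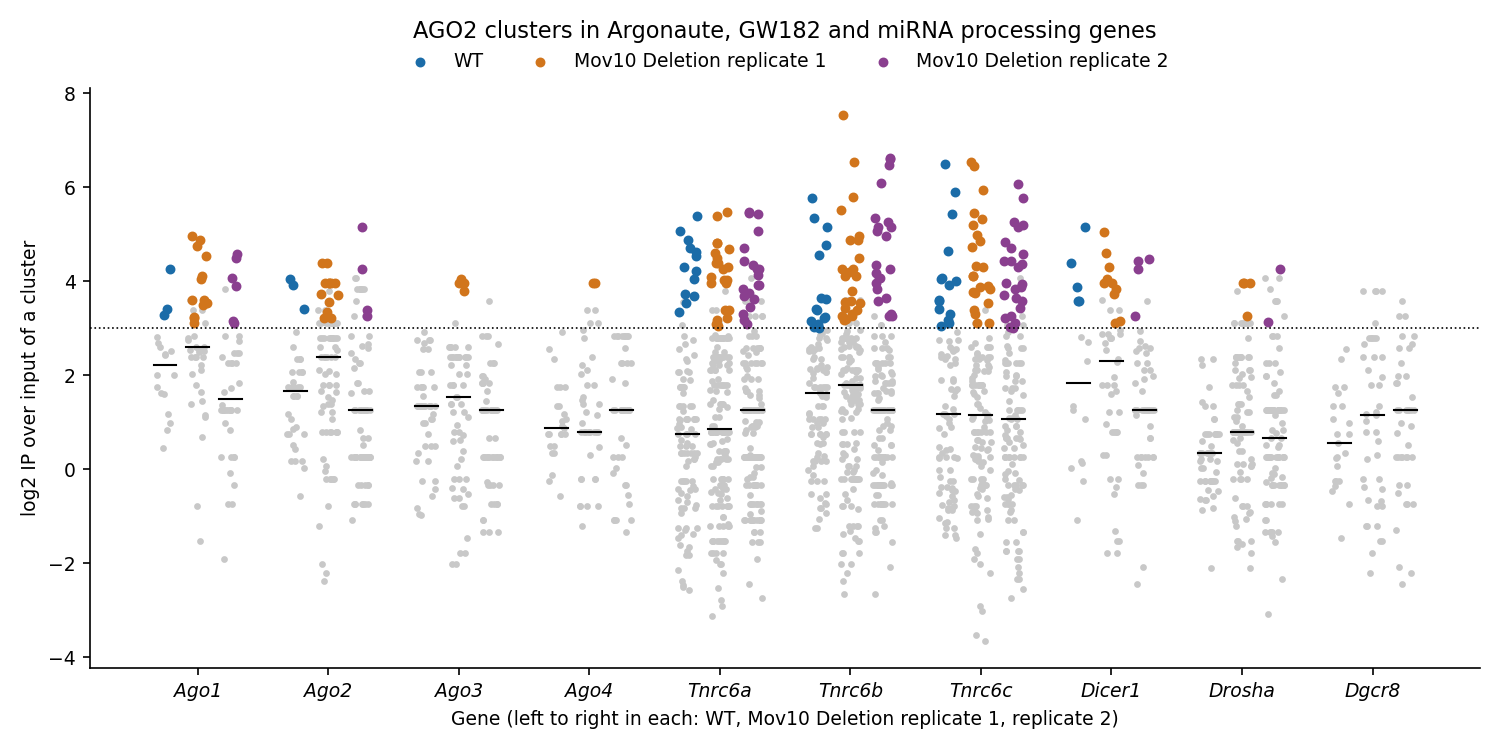
The log2 IP over input (vertical axis) of every AGO2 cluster in the 10 genes, by gene and library; coloured points are enriched clusters, grey points the others, black bars medians, and the dotted line a log2 of 3. The 3 GW182 genes carried 43, 69 and 68 enriched clusters in the 3 libraries, and *Dgcr8* none.

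*Ago2* encodes the immunoprecipitated Argonaute, the member of the family that can cleave its target. It held 3 enriched clusters of 36 in WT, 13 of 83 in *Mov10* Deletion replicate 1 and 4 of 83 in replicate 2, on chromosome 15, minus strand. The strongest in WT was chr15:73101718-73101860, centred 164 nt from the 3′ end, with a log2 of 4.04 (39 IP and 2 input reads, 95% interval 2.09 to 7.14). No *Ago2* cluster was enriched in both *Mov10* Deletion libraries. A WT cluster at chr15:73104034-73104149 (log2 3.42, 38 and 3 reads) carried targets of miR-124-3p (score 6.87) and miR-181b-5p (score 7.81), and an enriched replicate 1 cluster at chr15:73104056-73104141 (log2 3.55) overlapped it. Replicate 2 listed no target cluster in *Ago2*, against 8 in WT and 9 in replicate 1.

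*Ago1*, which represses targets without cleaving them, held 3 enriched clusters of 18 in WT, 13 of 44 in replicate 1 and 6 of 44 in replicate 2. All 3 in WT and all 6 in replicate 2 lay within 5000 nt of its 3′ end, as did 11 of 13 in replicate 1. The strongest WT cluster, chr4:126438702-126438811 on the minus strand, had a log2 of 4.26 (91 and 4 reads, 2.86 to 6.17) and overlapped a target cluster of miR-124-3p (score 6.44) and miR-17-5p (5.30). Among clusters enriched in both *Mov10* Deletion libraries the strongest, by the lower value of the pair, was chr4:126437212-126437327, with a log2 of 4.75 (31 and 2 reads, 2.78 to 7.86) in replicate 1 and 4.06 (14 and 2 reads, 1.94 to 7.24) in replicate 2. A WT cluster inside it, chr4:126437245-126437290, had a log2 of 3.40. miR-124-3p was assigned there in WT (score 13.6) and replicate 1 (3.62) but not in replicate 2.

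*Ago3* and *Ago4*, neighbours of *Ago1* on chromosome 4, had no enriched cluster in WT or in replicate 2. *Ago3* had 0 of 47 clusters enriched in WT, which allows a share of up to 6.38%, and *Ago4* 0 of 25, which allows 12.0%. Here and below, the share that a count of 0 allows is 3 divided by the number of clusters. Replicate 1 had 4 in *Ago3* and 2 in *Ago4*. The strongest of these, chr4:126333324-126333443 in *Ago3* (log2 4.05, 19 and 2 reads), lay on a miR-124-3p target locus that all 3 libraries listed, with scores of 3.62 in WT, 4.46 in replicate 1 and 3.46 in replicate 2. Both *Ago4* clusters rested on 9 IP reads against 1 input read.

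The GW182 genes held the deepest clusters. *Tnrc6b* had 15 enriched clusters of 102 in WT, 24 of 157 in replicate 1 and 22 of 157 in replicate 2. The strongest in WT was chr15:80933464-80933574, plus strand, 7567 nt from the 3′ end, with a log2 of 5.78 (389 and 6 reads, 4.64 to 7.23). By the lower value of the *Mov10* Deletion pair it was chr15:80933535-80933576, with 7.55 in replicate 1 (322 and 3 reads, 5.98 to 9.83) and 6.59 in replicate 2 (81 and 2 reads, 4.69 to 9.66), where chr15:80931371-80931456 had 6.61 (41 reads and 1 read). The replicate 1 cluster adjoining chr15:80933535-80933576 (log2 6.53) stood at the 400 limit of the deposited −log10 p, so its reads could not be inferred. The WT cluster overlaps both of these, whereas chr15:80931371-80931456 lies apart from them. A miR-124-3p target cluster lay on the overlapping clusters in every library, with a score of 171 in WT, 86.5 in replicate 1 and 26 in replicate 2. That score ranked 33 of 22074 assignments in WT, 54 of 30526 in replicate 1 and 128 of 13468 in replicate 2.

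*Tnrc6a* had 13 enriched clusters of 109 in WT, 22 of 180 in replicate 1 and 20 of 180 in replicate 2. The strongest in WT and, by the lower value of the pair, in *Mov10* Deletion was the same place, centred 6455.5 nt from the 3′ end. By single library, chr7:123194446-123194524 was higher in replicate 1 (5.47) and chr7:123193094-123193143 in replicate 2 (5.46). In WT chr7:123188784-123188897, plus strand, had a log2 of 5.39 (198 and 4 reads, 4.01 to 7.28). In *Mov10* Deletion chr7:123188786-123188895 had 5.38 in replicate 1 (120 and 5 reads, 4.12 to 7.03) and 5.44 in replicate 2 (73 and 4 reads, 4.03 to 7.36). The 3 values differed by less than their counting error. miR-124-3p was assigned there with a score of 134 in WT, 55.9 in replicate 1 and 16.9 in replicate 2, which ranked 46, 119 and 297 in their libraries.

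*Tnrc6c* had 15 enriched clusters of 87 in WT, 23 of 133 in replicate 1 and 26 of 133 in replicate 2. Its strongest WT cluster, chr11:117741684-117741737 on the plus strand and 21728.5 nt from the 3′ end, had a log2 of 6.50 on 107 IP reads and 1 input read (3.99 to 11.8). The overlapping *Mov10* Deletion cluster, chr11:117741661-117741738, had 4.34 in replicate 1 (116 and 10 reads) and 4.38 in replicate 2 (61 and 7 reads). Their intervals, 3.40 to 5.43 and 3.25 to 5.75, overlap that of WT. miR-124-3p scored 96.1, 46.4 and 27.0 at this site, ranks 93, 171 and 123. Hence each GW182 gene had a miR-124-3p site among the 297 highest scores of every library. By the lower value of the pair, the strongest cluster enriched in both *Mov10* Deletion libraries lay elsewhere, at chr11:117749652-117749730, with 5.44 (75 and 3 reads) and 5.78 (23 reads and 1 read). WT clusters at chr11:117749635-117749724 (log2 3.05) and chr11:117749725-117749817 (log2 3.93) overlapped it.

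*Dicer1* had the fewest clusters in WT, 16, of which 5 were enriched, against 10 of 50 in replicate 1 and 4 of 50 in replicate 2. The strongest in WT was chr12:104703002-104703100, minus strand, with a log2 of 5.15 on 42 IP reads and 1 input read (2.59 to 10.5). A neighbouring cluster of over 200 nt was enriched in every library. In WT it was chr12:104702667-104702910, with 4.39 (174 and 7 reads, 3.32 to 5.73). In *Mov10* Deletion it was chr12:104702672-104702908, with 4.30 in replicate 1 (79 and 7 reads, 3.19 to 5.66) and 4.48 in replicate 2 (56 and 6 reads, 3.26 to 5.98). Here, too, the libraries differed by less than counting error.

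*Drosha* and *Dgcr8*, which form the nuclear Microprocessor, had no enriched cluster in WT. In *Drosha* 0 of 51 clusters allows a share of up to 5.88%, and in *Dgcr8* 0 of 23 allows 13.0%. *Drosha* had 4 enriched clusters in replicate 1 and 2 in replicate 2, at different places and on 8 to 11 IP reads each. *Dgcr8* had none in either, and 0 of 43 allows 6.98%. The *Dgcr8* gene carries the hairpins *Mir1306* and *Gm24572* (miR-3618), and *Tnrc6b* carries *Mir5113*. No AGO2 cluster overlapped any of them, and none of their mature miRNAs was assigned to a target in any library.

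Positions were then read along the genes. Of the enriched clusters 21 of 54 in WT, 51 of 115 in replicate 1 and 37 of 84 in replicate 2 had their centre within 5000 nt of the 3′ end of the gene. To say which part of the mRNA this was, distances were set against the GENCODE vM39 transcript of each gene, since exon positions on mm10 were not used here. This rests on the 3′ end being the same in both annotations. At equal distance, 14 of 34 miRNA loci of *Tnrc6a*, 14 of 30 of *Tnrc6b*, 7 of 32 of *Tnrc6c* and 15 of 24 of *Dicer1* held a match to the seed of their own miRNA. No other offset within 7000 nt gave more matches, except 16 at an offset of 21 nt in *Dicer1*. Loci were counted by miRNA, so miRNAs with the same seed at the same match counted separately, above all let-7 in *Dicer1*. The distinct matches are therefore fewer than the loci that held one. For the Argonaute genes, *Drosha* and *Dgcr8* fewer than 5 loci matched, and no region is given.

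In these 4 genes and up to 25000 nt from the 3′ end, 22 enriched clusters of WT were centred in the 3′UTR, 19 in coding sequence and 0 in an intron. Replicate 1 had 39, 25 and 1, and replicate 2 had 38, 19 and 0. A further 7, 14 and 15 lay farther from the 3′ end. *Tnrc6b*, whose 3′UTR spans 11612 nt, had 7, 16 and 17 of its enriched clusters there, 2, 1 and 2 in coding sequence and 6, 7 and 3 farther away. *Tnrc6c*, with a 3′UTR of 2591 nt, had 4, 7 and 7 there and 10, 13 and 11 in coding sequence. *Tnrc6a* had 9, 11 and 11 in its 3′UTR of 2348 nt and 4, 6 and 5 in coding sequence. The leading miR-124-3p site thus fell in the 3′UTR of *Tnrc6b* but in the coding sequence of *Tnrc6a* and *Tnrc6c*.

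**Figure D2:**
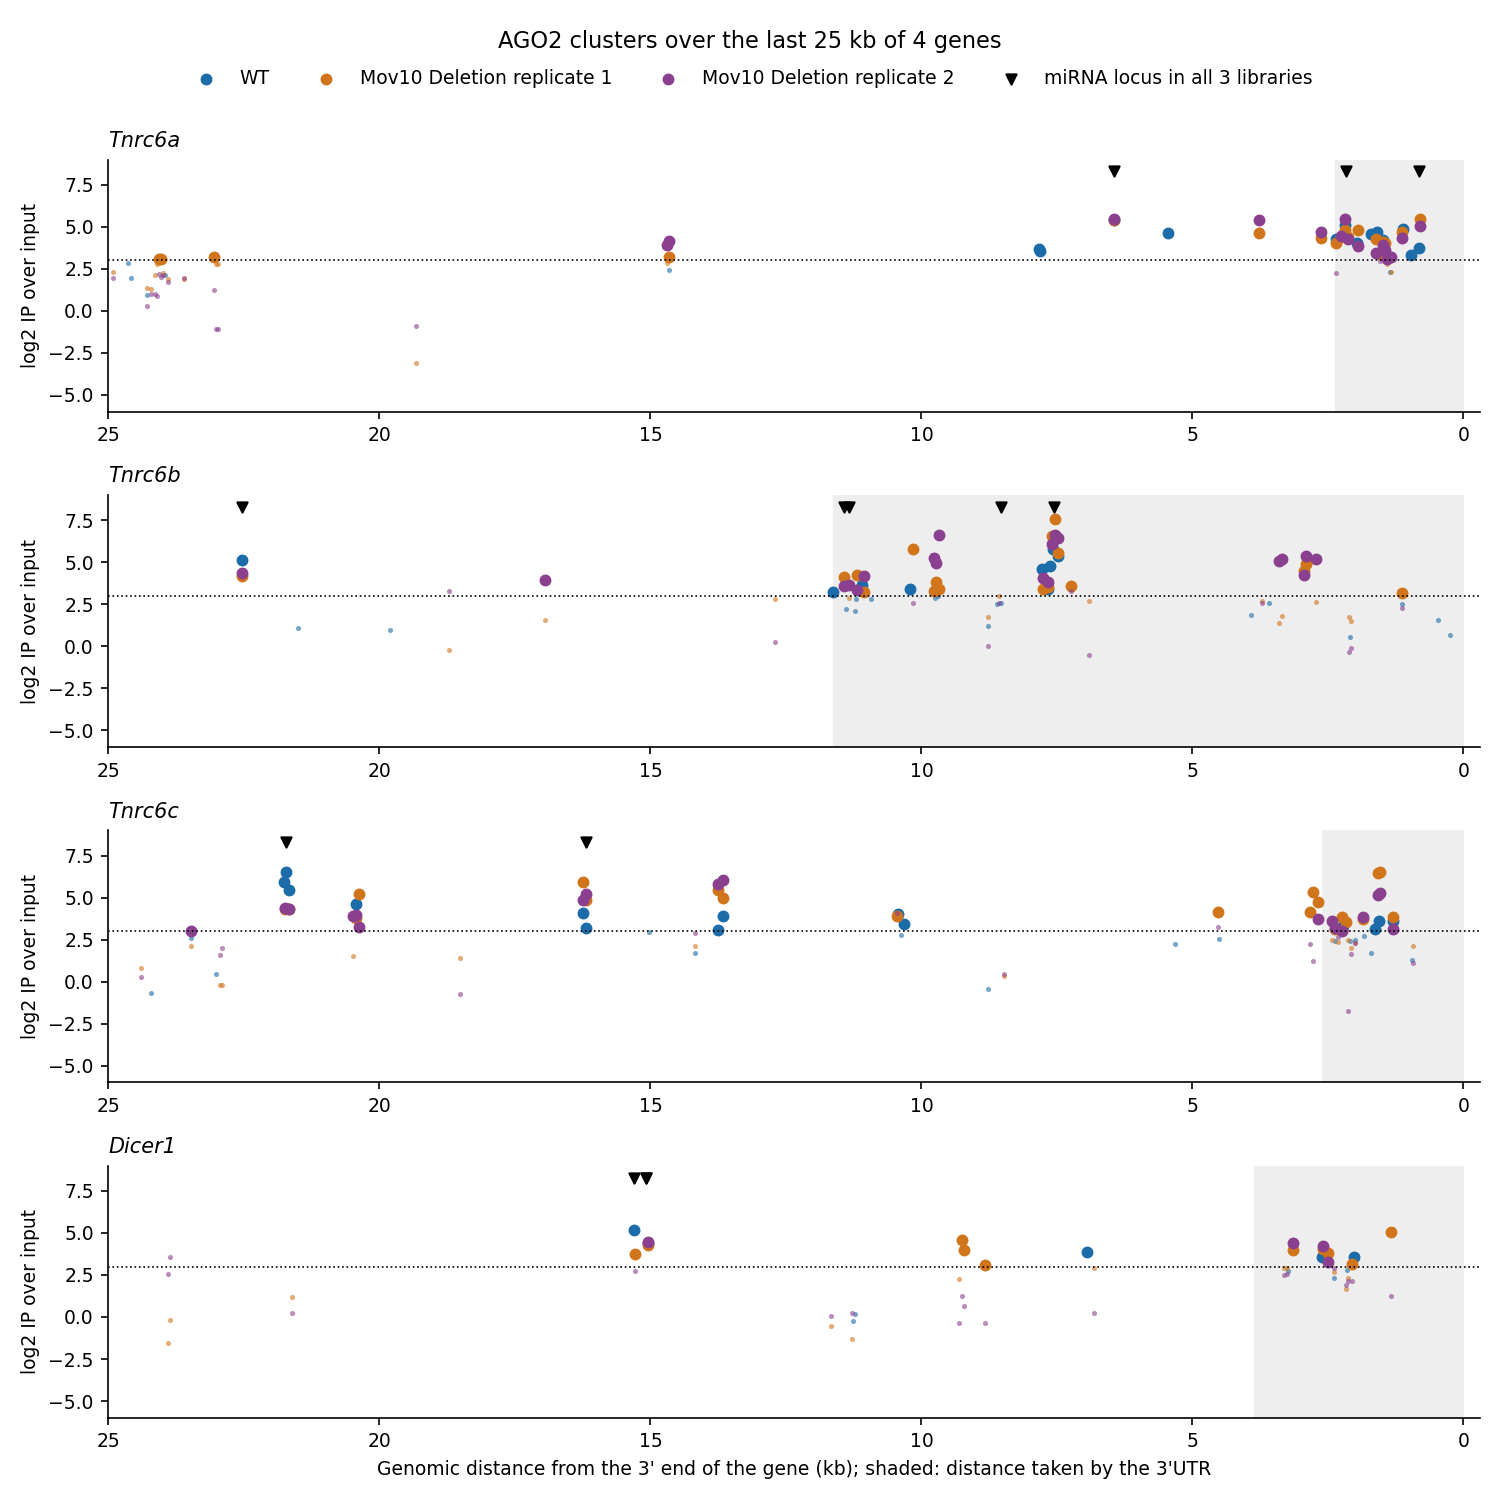
The log2 IP over input of AGO2 clusters against genomic distance from the 3′ end of the gene in kb, for 4 genes and 3 libraries; large points are enriched, faint points are not, triangles mark miRNA loci in all 3 libraries, grey shading is the 3′UTR and the dotted line a log2 of 3. Of the enriched clusters of *Tnrc6b* 7 of 15 in WT, 16 of 24 in replicate 1 and 17 of 22 in replicate 2 lay in its 3′UTR.

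Target clusters were found in all 10 genes in WT and in replicate 1, and in 8 in replicate 2, where *Ago2* and *Ago4* had none. Among genes with at least 16 AGO2 clusters 75.2%, 77.8% and 58.9% had a target cluster, and among all genes with an AGO2 cluster 40.9%, 45.9% and 32.2%. The 10 genes held 69 target clusters in WT, 100 in replicate 1 and 37 in replicate 2. Because a cluster can name several miRNAs, these made 122, 133 and 42 assignments. On an enriched AGO2 cluster of the same library lay 25 of 69 in WT, 34 of 100 in replicate 1 and 18 of 37 in replicate 2, where 15.0%, 11.7% and 12.0% of all target clusters did.

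Assignments of 1 miRNA that overlapped between libraries were merged to 218 loci. Of these 17 occurred in all 3 libraries, 40 in a pair of libraries and 161 in 1. WT and replicate 1 alone shared 35, WT and replicate 2 alone 4, and the *Mov10* Deletion libraries without WT 1, a miR-124-3p locus in *Tnrc6b*. Replicate 2 had the fewest loci, 42, against 119 in WT and 131 in replicate 1. The 17 loci in all 3 libraries belonged to 6 genes, *Ago3*, *Dgcr8*, *Dicer1* and the 3 GW182 genes, and 9 of them lay on an enriched AGO2 cluster in each library. The score was highest in WT at 11 of the 17 and lowest in replicate 2 at 15. Since its scale between libraries is not described, no difference was drawn from it.

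**Figure D3:**
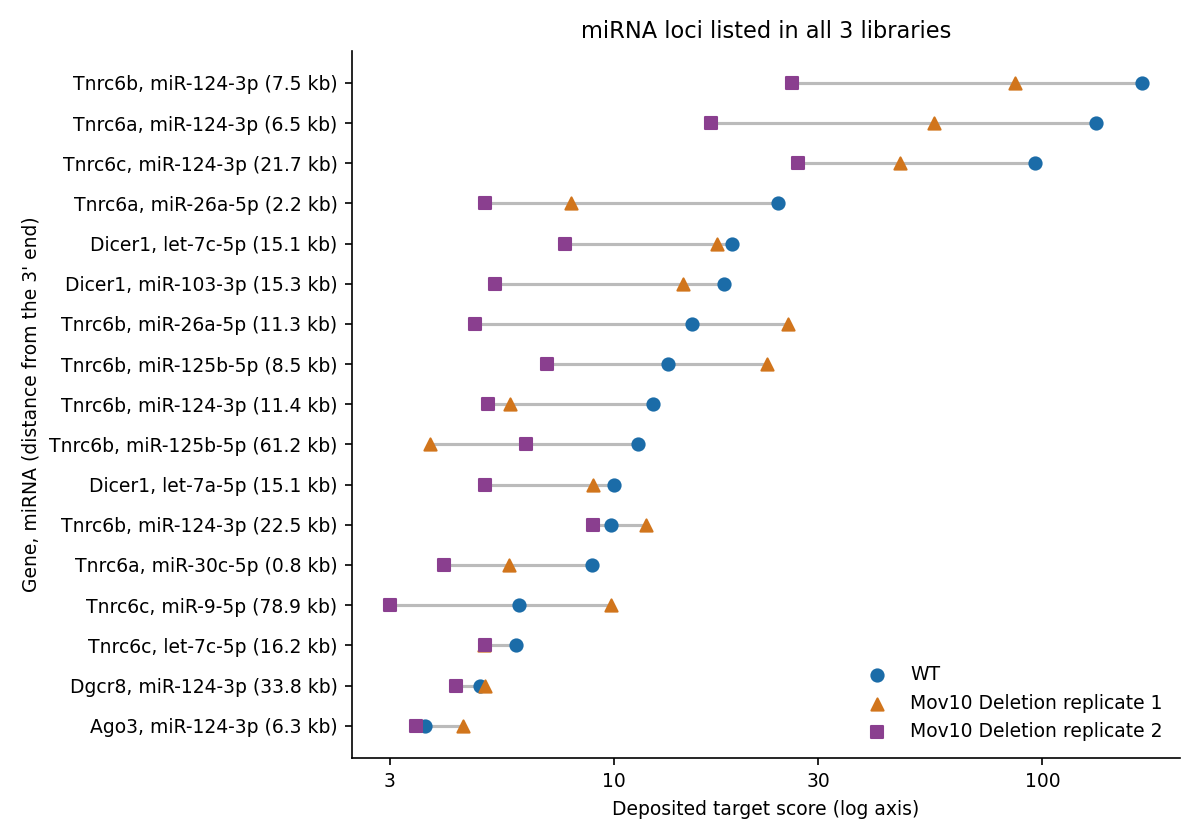
The deposited target score (horizontal, log axis) at the 17 miRNA loci listed in all 3 libraries, by gene and miRNA with the distance from the 3′ end; circles are WT, triangles *Mov10* Deletion replicate 1 and squares replicate 2, and grey lines join the lowest and highest. The miR-124-3p loci of the GW182 genes have the highest scores, 171, 134 and 96.1 in WT.

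The seed matches behind this link are described here without a test, because *Dicer1* and the GW182 genes were kept for having them. The motif was the 7-nucleotide complement of miRNA nucleotides 2 to 8, as capitalised in the sites printed above, searched on the mRNA strand only. It was held by 50 of the 120 loci of these 4 genes whose miRNA had a sequence, and by a mean of 1.48% of windows of the same length along their transcripts. Loci of miRNAs with the same seed can share a match, so the 50 are not distinct sites. In the genes that were not linked, the transcript at equal distance held it for 2 of 7 loci in *Ago1*, 0 of 12 in *Ago2*, 0 of 6 in *Ago3*, 0 of 1 in *Ago4*, 0 of 2 in *Drosha* and 0 of 4 in *Dgcr8*. The most at any offset within 7000 nt was 2, 4, 2, 1, 0 and 1 in the same order. Without a link the sequence read may not be that of the locus, so these counts do not show that the loci lack a match. A match is a description of the sequence and does not show that the site was used.

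miR-124-3p led in number. It made 30 of 122 assignments in WT, 29 of 133 in replicate 1 and 15 of 42 in replicate 2, and occurred in all 10 genes when libraries were combined. As a share this was 24.6% in WT (17.2 to 33.2%), 21.8% in replicate 1 (15.1 to 29.8%) and 35.7% in replicate 2 (21.6 to 52.0%). Over all assignments of each library miR-124-3p made 42.2%, 34.8% and 36.8%, which is above the interval in WT and replicate 1 and inside it in replicate 2. Assignments that share a cluster are not independent. In *Tnrc6b* miR-124-3p had 8, 9 and 6 target clusters. A further site of it, chr15:80918512-80918605 in coding sequence, was on an enriched cluster in all 3 libraries, with log2 values of 5.15, 4.19 and 4.34 and scores of 9.84, 11.9 and 8.93.

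let-7 was the next family, with 17, 15 and 5 assignments in 9, 11 and 4 target clusters. It made 13.9%, 11.3% and 11.9% of assignments in the 10 genes, against 9.58%, 9.80% and 8.75% over each library. The family holds 9 listed miRNAs that share a seed, so 1 site can be given to several. This was plainest in *Dicer1*, where the WT target cluster chr12:104702745-104702859 named 8 miRNAs, 6 of them let-7. It lay on the cluster of over 200 nt described above, in coding sequence, and holds the first of the *Dicer1* sites printed above. let-7c-5p scored 18.9 there in WT, 17.4 in replicate 1 and 7.69 in replicate 2, and let-7a-5p scored 10, 8.96 and 5. The second let-7 match, at coding positions 3749 to 3755, fell in a separate target cluster, with let-7c-5p at 5.57 in WT and let-7f-5p at 4 in replicate 1, and none in replicate 2.

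Next to it lay the *Dicer1* locus of miR-103-3p, again in coding sequence and in all 3 libraries, with scores of 18.1 in WT, 14.5 in replicate 1 and 5.28 in replicate 2. It carries the third *Dicer1* site printed above. The AGO2 cluster on it was enriched in WT (5.15) and in replicate 1 (chr12:104702980-104703083, log2 3.74, 23 and 3 reads) but not in replicate 2. miR-107-3p, which shares the seed of miR-103-3p, was assigned there in replicate 1 alone. In the 3′UTR of *Dicer1* an enriched cluster in every library (chr12:104690233-104690452 in WT, log2 3.58, 142 and 10 reads) carried miR-130a-3p in WT (5.19) and replicate 2 (10) and miR-301a-3p in WT (8.46) and replicate 1 (3). These share a seed and the match printed above. miR-26a-5p and miR-103-3p were among others assigned to the same stretch in WT and replicate 1 without a seed match.

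miR-26 was assigned to every GW182 gene at a seed match in the 3′UTR. In *Tnrc6a* miR-26a-5p scored 24.2 in WT, 7.93 in replicate 1 and 5 in replicate 2, on overlapping AGO2 clusters with log2 values of up to 5.08, 4.82 and 5.46. In *Tnrc6b* the scores were 15.3, 25.4 and 4.75, and the AGO2 cluster over the seed match, chr15:80929693-80929799 in *Mov10* Deletion, was enriched in replicate 2 (3.65) but not in replicate 1 (2.88), nor was the WT cluster there (2.22). The adjoining cluster chr15:80929632-80929692 was enriched in both replicates (4.12 and 3.58). In *Tnrc6c* the score was 9.49 in WT and 3.89 in replicate 1, on no enriched cluster, and the locus was absent from the list of replicate 2. miR-26a-5p was also assigned without a seed match, to the leading miR-124-3p site of *Tnrc6a* (11.9 in WT and 6.98 in replicate 1), to chr7:123187373-123187438 of the same gene in replicate 1 (11.8), and to chr11:117741762-117741809 in *Tnrc6c* in replicate 2 (9.64), where the AGO2 cluster was enriched (4.31). A further such locus, chr11:117742941-117743071 in *Tnrc6c* in replicate 1 (score 3), overlapped enriched AGO2 clusters with a log2 of up to 5.19. Within the 29 nucleotides printed for each, *Tnrc6a* and *Tnrc6b* were identical at 21, *Tnrc6a* and *Tnrc6c* at 19, and *Tnrc6b* and *Tnrc6c* at 18. miR-26a-5p and miR-26b-5p made 8, 9 and 4 assignments in 6, 7 and 4 target clusters, with or without a seed match. These were 6.56%, 6.77% and 9.52% of assignments in the 10 genes, against 1.54%, 1.43% and 1.46% of those in each library.

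Among miR-30 loci, the one present in all 3 libraries lay in *Tnrc6a*. At 815.5 nt from the 3′ end of *Tnrc6a* miR-30c-5p scored 8.89 in WT, 5.71 in replicate 1 and 4.01 in replicate 2, on AGO2 clusters of 3.73, 5.47 and 5.06. miR-30e-5p was assigned to the same site in WT (8.43) and replicate 1 (5.87). At 1557.5 nt from the 3′ end of *Tnrc6c* miR-30c-5p scored 12.5 in WT and 3.65 in replicate 1. The AGO2 cluster there had a log2 of 3.60 in WT, of 6.53 in replicate 1 (chr11:117761878-117761915, 53 reads and 1 read, 3.99 to 11.9) and of 5.25 in replicate 2 (16 reads and 1 read, 2.57 to 10.6). *Tnrc6b* had a miR-30c-5p locus with a seed match in its 3′UTR in WT alone (score 4.40), where miR-30d-5p was assigned in WT and replicate 1, and another without a match. *Ago2* had miR-30c-5p and *Ago3* miR-30d-5p in replicate 1 alone. miR-30c-5p, miR-30a-5p and miR-30e-5p together made 9, 6 and 1 assignments. These were 7.38%, 4.51% and 2.38% of those in the 10 genes, against 1.61%, 1.58% and 1.28% over each library. miR-30b-5p and miR-30d-5p, for which no sequence was held, are left out of these counts and shares.

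miR-125b-5p reached 5 genes, *Ago2*, *Dicer1* and the 3 GW182 genes. It made 7, 11 and 3 assignments, or 5.74%, 8.27% and 7.14% in the 10 genes against 6.47%, 6.14% and 5.94% over each library. Its best locus in all 3 libraries, chr15:80932501-80932593 in the 3′UTR of *Tnrc6b*, scored 13.4, 22.8 and 6.99, held no seed match and lay on no enriched AGO2 cluster. Another, chr15:80879868-80879955, scored 11.4, 3.73 and 6.23 and held the match printed above, farther from the 3′ end than the 25000 nt used for regions and also on no enriched cluster. miR-9-5p made 8, 7 and 1 assignments, and its locus in all 3 libraries was chr11:117684513-117684546 in *Tnrc6c*, with scores of 6, 9.88 and 3. That locus held no seed match and overlapped no AGO2 cluster, enriched or not, in any library. It too lay farther from the 3′ end than the 25000 nt used for regions. The miR-9-5p share of assignments was 6.56%, 5.26% and 2.38% in the 10 genes, against 9.12%, 6.69% and 6.86% over each library. miR-130a-3p and miR-301a-3p also shared the *Tnrc6b* site printed above in WT and replicate 1. Their target cluster overlapped an enriched AGO2 cluster in each, with a log2 of 3.65 and 4.26. By distance from the 3′ end, the match lay inside the replicate 1 cluster, chr15:80929835-80929944. It lay outside the WT cluster, chr15:80929907-80930068. miR-153-3p was assigned to each GW182 gene in WT, and in *Tnrc6a* to an enriched cluster in WT (score 3.68) and replicate 1 (11.9). Altogether 35 of the 66 miRNAs appeared in more than 1 library or in more than 1 gene of a library. miR-374c-5p had 3, 8 and 5 assignments in the 3 whole libraries, and its *Tnrc6a* locus scored 17.0 in WT and 12.8 in replicate 1 without a seed match.

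**Figure D4:**
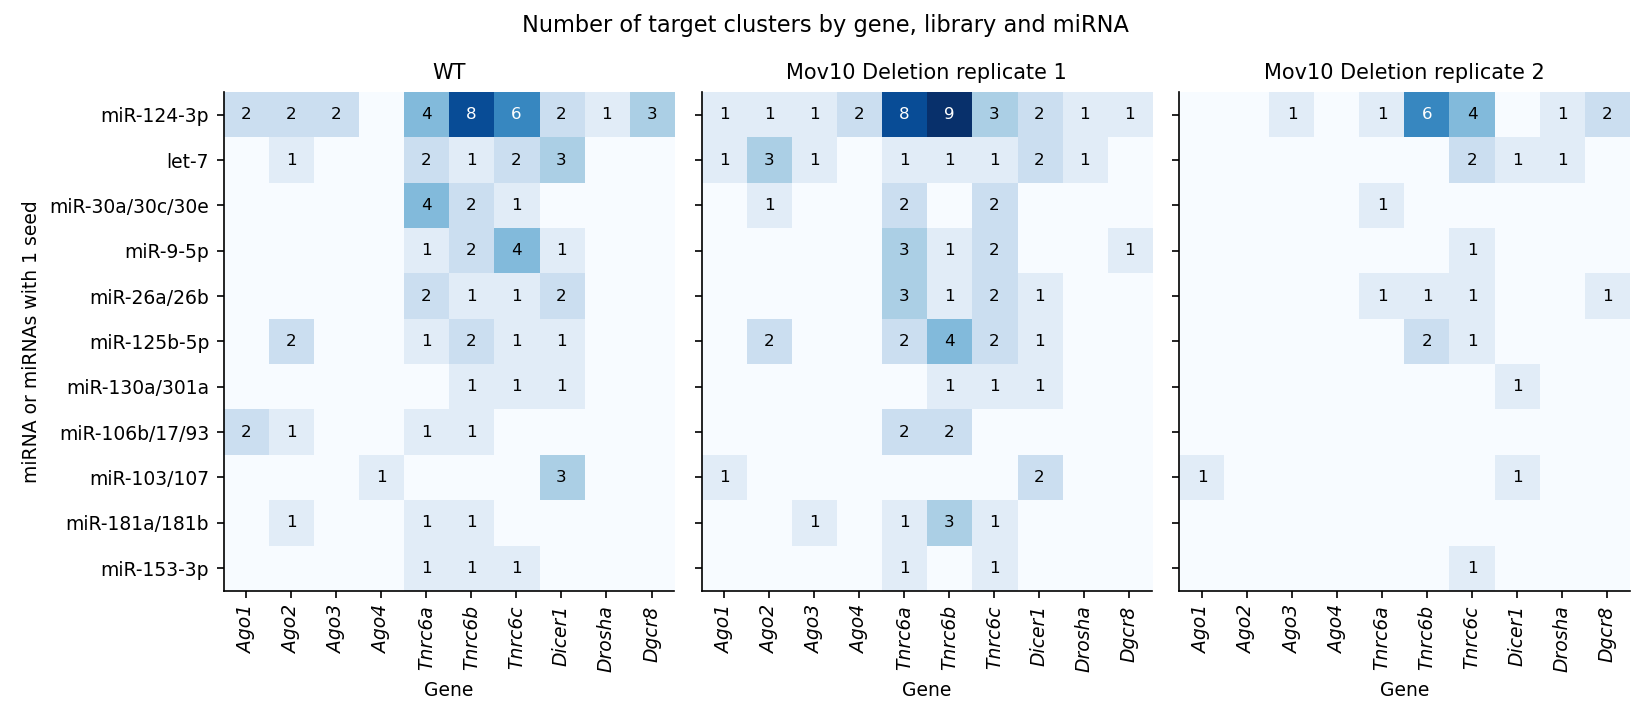
Number of target clusters (cell values and blue shade) by gene and by miRNA or group of miRNAs with the same seed, in each library; an empty cell is 0. miR-124-3p, in the top row, had 8, 9 and 6 clusters in *Tnrc6b* and none in *Ago4* in WT or in *Ago1*, *Ago2*, *Ago4* and *Dicer1* in replicate 2, and miR-103/107 had 3, 2 and 1 in *Dicer1*.

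The 2 *Mov10* Deletion libraries, the only replicates, were compared at the 882 clusters with the same boundaries. Of these 50 were enriched in both, 65 in replicate 1 alone and 33 in replicate 2 alone. The 50 are 43.5% of the enriched clusters of replicate 1 and 59.5% of those of replicate 2, where over all genes 13.7% and 22.8% were enriched in both. They are 33.8% of the 148 enriched in at least 1 library (26.2 to 42.0%), against 9.38% over all genes. They lay in 5 genes, *Ago1*, *Dicer1* and the 3 GW182 genes, with 2, 4, 13, 15 and 16 in the order *Ago1*, *Dicer1*, *Tnrc6a*, *Tnrc6b* and *Tnrc6c*. The counting intervals of the replicates overlapped at all 49 whose reads could be inferred, and replicate 2 was the higher at 27 of 50. These clusters were chosen for being enriched in both, and many intervals are wide. Their overlap could hardly have failed and does not measure agreement. Clusters enriched in both had a median of 59 IP reads in replicate 1 and 24 in replicate 2, whereas those of replicate 1 alone had 17 and those of replicate 2 alone had 15. Over the 882 clusters the log2 of replicate 2 was lower by a median of 0.48 with an SD of 2.17. The rank correlation across these clusters, given as a description, was 0.14. It was 0.02 over the 148 enriched in at least 1 library, a set chosen by the values themselves. Over all 614927 clusters with the same boundaries in both libraries it was also 0.02.

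**Figure D5:**
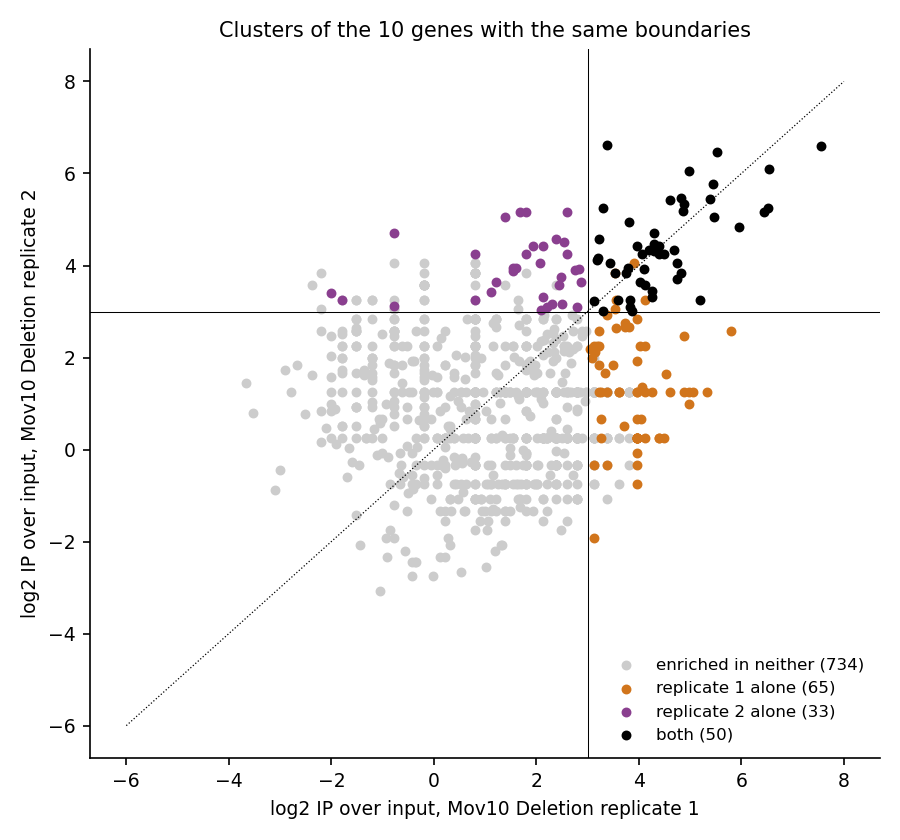
The log2 IP over input of the 882 clusters with the same boundaries in *Mov10* Deletion replicate 1 (horizontal) and replicate 2 (vertical); lines mark a log2 of 3 and the dotted diagonal equal values. Black points are the 50 clusters enriched in both, orange the 65 of replicate 1 alone, purple the 33 of replicate 2 alone and grey the 734 of neither.

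Of the 50 clusters enriched in both *Mov10* Deletion libraries 35 (70.0%) overlapped an enriched WT cluster, and of the 54 enriched in WT 32 (59.3%) overlapped one of the 50. Over all genes the same shares were 62.9% and 34.9%. A further look at the 54 found 39 on a cluster enriched in at least 1 *Mov10* Deletion library and 11 on none of the clusters whose boundaries both share. With 1 WT brain these overlaps cannot be set against the spread between WT brains.

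Other genes of the pathway were counted as a list of 25: *Xpo5*, *Tarbp2*, *Prkra*, *Ddx5*, *Ddx17*, *Srrt*, *Zswim8*, *Tut4*, *Tut7*, *Dis3l2*, *Lin28a*, *Lin28b*, *Khsrp*, *Adar*, *Tsn*, *Tsnax*, *Hsp90aa1*, *Hsp90ab1*, *Fkbp4*, *Limd1*, *Ajuba*, *Wtip*, *Trim32*, *Trim71* and *Eri1*. An enriched cluster was found in 6 of 25 in WT, 11 of 25 in replicate 1 and 11 of 25 in replicate 2, and in 7 of 25 in both *Mov10* Deletion libraries. Among all genes with an AGO2 cluster the shares were 18.7%, 40.9%, 32.1% and 24.1%. Of the 25, *Lin28a* had no AGO2 cluster in WT. The highest log2 values in WT were those of *Tsnax*, a subunit of the nuclease C3PO (4.71), *Wtip*, a LIM protein of the *Ajuba* family (4.0), and *Khsrp*, which binds let-7 precursors (3.71). In replicate 1 they were *Wtip* (6.58), *Khsrp* (5.10) and *Lin28b* (4.71), the last an inhibitor of let-7 processing. In replicate 2 *Lin28b* (5.78) and *Tsnax* (4.8) led, and *Khsrp*, *Wtip* and *Hsp90aa1* were equal at 4.71. The values named for *Wtip*, *Lin28b* and *Hsp90aa1* each rested on 1 input read, with 11 to 55 IP reads. Those of *Tsnax* and *Khsrp* rested on 2 to 4 input reads. A target cluster was listed in 16, 17 and 14 of the 25, and in 40.9%, 45.9% and 32.2% of all genes with an AGO2 cluster.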

How the data were processed

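AGO2 chimeric eCLIP clusters of 1 WT and 2 *Mov10* Deletion whole brains at P0 were analysed. The authors deposited, for each AGO2 cluster, a log2 ratio of IP to input with a −log10 p-value, and for each target cluster a miRNA and a score, which the sources used here do not describe. Per the submitters' processing notes the tools were UMI-tools 1.1.1, cutadapt 3.2, STAR 2.7.7a and Bowtie 1.2.3, with mm10. Per the methods, clusters were called with CLIPper and set against a size-matched input.

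Clusters that shared at least 1 nt with a RefSeq gene (GRCm38.p6, the assembly of mm10) on its strand were assigned to it. Strands came from RefSeq sequence tables (28096 genes) or, by name, from GENCODE vM39 (17210, *Ago2* among them), which left 90.6% of genes with one. Target scores were listed from 3. Coordinates are mm10, counted from 1. Regions were assigned by distance from the 3′ end to GENCODE vM39 transcripts, with no coordinates converted.

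IP and input reads were inferred as the whole numbers that give both deposited values (−log10 p within 0.001, or 0.01% of it). One IP read per input read stood for a fold of 0.845 (WT), 1.74 (*Mov10* Deletion replicate 1) and 2.39 (replicate 2). An inferred input of 1 may stand for 0. Inference was tested on simulated data, where 100%, 99.8% and 99.7% of 755, 1252 and 1465 simulated enriched clusters were recovered. Intervals are exact binomial 95% intervals and cover counting error only. The share that a count of 0 allows is not such an interval, but 3 divided by the number of clusters. The total reads of each library are not given in the sources used here.

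All 10 genes were named, with the enriched cluster of highest log2 per genotype (the lower value of the pair ranked *Mov10* Deletion clusters), and target clusters on enriched clusters as counts with examples. The members and lists were chosen with earlier results of these data known. No test between genotypes was made. Python 3.11.15 with numpy 2.4.6, pandas 2.3.3, SciPy 1.17.1 and matplotlib 3.10.9 was used. Alternatives were other log2, p, read and score minimums, other windows, merged clusters and 1 *Mov10* Deletion library alone.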

Additional observations from a re-analysis of the deposited data

How the results depend on the processing

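The number of genes with an enriched cluster stayed within 1.5 times its value under every alternative tried, and leaving out a *Mov10* Deletion library turned the 7 genes enriched in both into 7 to 9. Of 61 recomputed values 49 stayed within 1.5 times, or within 1 SD for the log2 difference. With a log2 of at least 2 enriched clusters rose to 102 in WT and 181 in replicate 1, those in the last 5000 nt to 41 and 78, and WT target clusters on them to 41. A window of 1000 nt left 3, 6 and 3. Requiring 16 IP reads left 24 in the last 5000 nt in replicate 2. Clusters assigned to 1 miRNA made 46 assignments in WT and 81 in replicate 1, and a score of at least 4 left 27 in replicate 2. Merging adjoining enriched clusters gave 42, 79 and 57. Depth limits what an absent cluster or locus can show, above all in replicate 2. No paired analysis was possible because the genotypes share only replicate number 1.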
